A study of Mus musculus with 6 samples.

Results

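The genes described here are 35 enzymes of cholesterol and fatty acid synthesis and regulators of these pathways, measured in whole mouse embryos at stage E10.5, in midgestation. They were taken from a list by symbol and matched to Ensembl identifiers, by a rule that uses pathway membership and no measured value, although the list was drawn up with earlier results of these data known. All 35 were found among the 55401 gene identifiers of the count table, and all 35 were among the 16784 genes with enough counts to be tested. 5C embryos carried a tandem array of 5 *Mir483* copies in place at the *Igf2* locus, where an intron harbours this microRNA gene, and WT littermates had the unaltered locus. Each genotype had 3 libraries of poly(A) RNA, each from pooled material of 2 embryos, stated in the methods to be male and of a C57BL/6J background. The array was passed on by chimeric males from targeted embryonic stem cells and per the study 5C embryos do not survive midgestation, so 5C at this stage describes embryos before their loss.

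Cholesterol is built in the cytosol and endoplasmic reticulum from acetyl-CoA, through mevalonate, isoprenoid diphosphates, squalene and lanosterol. Fatty acids are built from the same acetyl-CoA by carboxylation, chain synthesis, elongation and desaturation. When membrane sterol is low, SCAP escorts the SREBP transcription factors to the Golgi, where they are cut and released to activate these genes, and INSIG proteins hold SCAP back when sterol is plentiful. In the embryo, cholesterol serves growing membranes and modifies Hedgehog proteins, and mouse or human embryos that lack late enzymes of the pathway are malformed.

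Libraries held 6357343 to 19151368 counts, and the detection limit of 3 counts corresponded to levels of 0.157 to 0.472 in CPM, which are counts per library scaled to its total. The lowest count of any of the 35 genes in any library was 41, so depth did not prevent detection of a member. In whole-embryo libraries, fewer cells of a type and less RNA per cell cannot be told apart. Markers of neural tube and neurons summed to 905 to 1062 CPM, of somite and limb mesoderm to 382.5 to 437 CPM, and of primitive red cells to 8211 to 16050 CPM, so that each was present in every library. The 5 heart markers summed to 201, 269 and 215 CPM in the WT libraries and to 161, 165 and 168 CPM in the 5C libraries. All 5 had a lower fitted value in 5C. The genotypes did not overlap for 2 of the 5, *Myh6* and *Myh7*, against 11.4% of all genes tested. They overlapped for *Tnnt2*, *Nppa* and *Nkx2-5*, the last at means of 2.73 CPM in WT and 2.71 CPM in 5C.

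WT replicate 1 stood apart in yolk sac and liver bud markers. These 12 genes summed to 6697, 216 and 493 CPM in the WT libraries and to 154, 153 and 1304 CPM in the 5C libraries. None was at 0 in any library, and all 12 had a lower fitted value in 5C. The libraries of the 2 genotypes overlapped for each of the 12, and 5C replicate 3 summed above WT replicates 2 and 3. Decidual markers summed to 10.49, 11.1 and 49.3 CPM in the WT libraries and to 43.2, 12.6 and 55.7 CPM in the 5C libraries. Of the 7, 1 was at 0 in WT replicate 1. The 5 that could be tested had a higher fitted value in 5C, with overlapping genotypes for each. The pools are described as male, but 4 Y-linked genes summed to 190, 4.12 and 193 CPM in the WT libraries. In the 5C libraries they summed to 212, 0.0854 and 130 CPM, with 3 of the 4 at 0 in 5C replicate 2. *Xist*, a transcript of female cells, was present in every library. It measured 535, 849 and 692 CPM in the WT libraries and 495, 914 and 640 CPM in the 5C libraries. The part of these differences between libraries in the values of the 35 genes was not tested, and values without WT replicate 1 or without replicate 2 of both genotypes are given where they change a count.

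The edited gene was checked first. *Mir483* had 11, 5 and 2 counts in WT and 85, 51 and 36 counts in 5C, an 8.29-fold difference, with a log2 fold change of 3.05 (SE 0.36). It was higher in each 5C library than in each WT library, with an adjusted p of 0.169 in edgeR's quasi-likelihood test. Poly(A) libraries do not measure the mature microRNAs, which are the forms that pair with target mRNAs. Their RefSeq sequences are shown because the matches searched for in the 35 genes follow from them, with the seed (bases 2 to 8) in capitals, 5′ to 3′. In GRCm38.p6 they lie on the minus strand, at chr7:142654932-142654952 for the 3p form and chr7:142654968-142654989 for the 5p form.
mmu-miR-483-3p: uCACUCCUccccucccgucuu
mmu-miR-483-5p: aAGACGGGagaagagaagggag

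The 35 genes differed little between 5C and WT. Of them, 22 were lower and 13 higher in 5C. Log2 fold changes ran from -0.24 to 0.17 and a median of -0.033, where the median of all genes tested was -0.0024. None passed an adjusted p under 0.05 in edgeR's quasi-likelihood test, as none of all genes tested did (0%), and the smallest adjusted p of a member was 0.781. The study, also with a quasi-likelihood test in edgeR, did report genes at a false discovery rate under 0.05 in these embryos. Most were lower in 5C, and processes enriched among the lower genes included lipid metabolism. Why its calls differ from those of the fit used here was not tested. DESeq2 also called none of the 35, where it called 21 of all genes (0.128%). At an unadjusted p under 0.05 there were 2 of the 35 members, a share close to the 6.02% of all genes tested. These were *Fasn*, lower in 5C, a direction that 3.47% of all genes took at that level, and *Acsl3*, higher in 5C, as 2.55% of all genes were.

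No member had a fitted difference over 1.5-fold, where 568 of all genes tested, or 3.38%, had one. The 95% interval of the log2 fold change lay inside 1.5-fold in either direction for 34 of the 35 genes, or 97.1%, and for 67.6% of all genes tested. The exception was *Idi1*, the member with the lowest level. The members were also measured more precisely than most genes, with a median level of 84.9 CPM against 20.1 CPM over all genes tested and a median SE of 0.086 against 0.13.

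**Figure D1:**
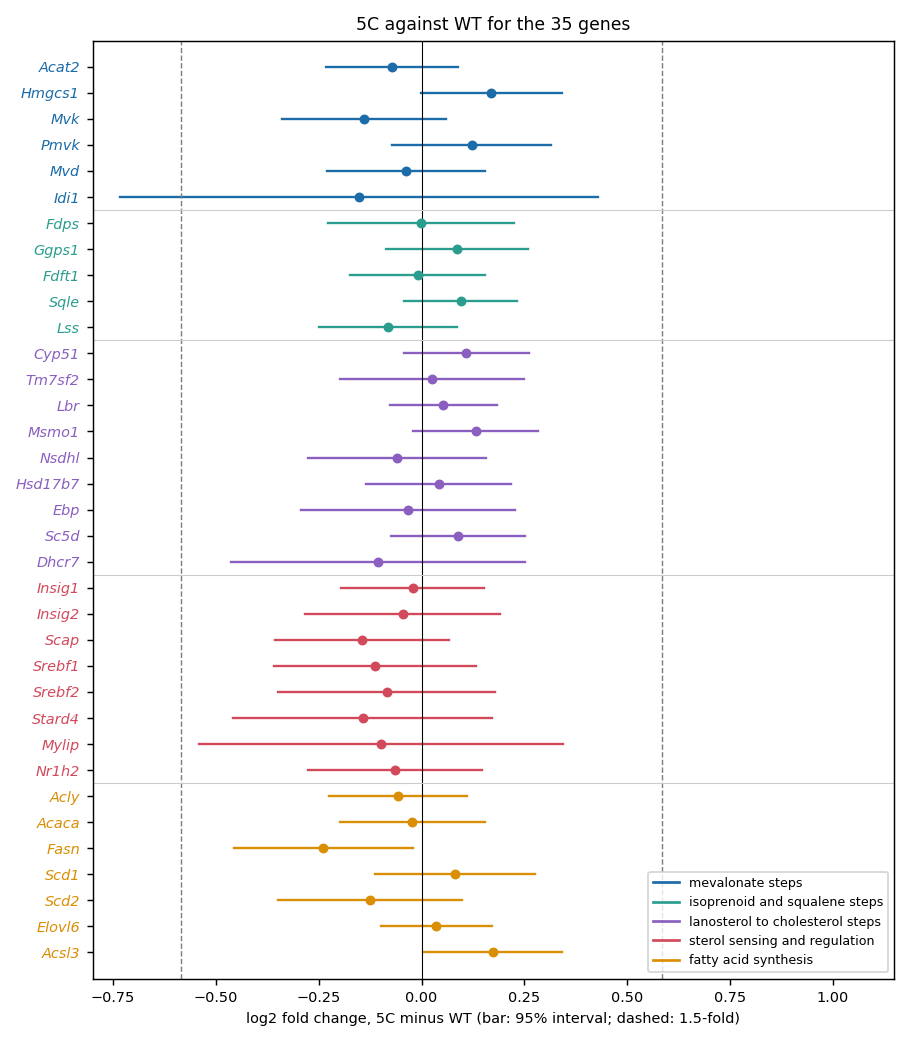
Log2 fold change of each of the 35 genes in 5C against WT (x axis; points, edgeR's fitted value; bars, 95% interval), one row a gene and coloured by role. Dashed lines mark 1.5-fold, and only the bar of *Idi1* crosses one of them.

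The libraries of the 2 genotypes did not overlap for 3 members, *Hmgcs1*, *Sqle* and *Msmo1*, all higher in 5C, a share of the 35 no larger than the 11.4% of all genes tested. The count was 5 when libraries were scaled by size alone, where the share over all genes was 12.2%, and 2 with relative log expression (RLE) scaling, where it was 11.3%. *Hmgcs1* makes the precursor of mevalonate, *Sqle* oxidises squalene and *Msmo1* removes methyl groups from sterol intermediates. Their differences were small, between 0.10 and 0.17 on the log2 scale, and none of these genes passed an adjusted p under 0.05.

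**Figure D2:**
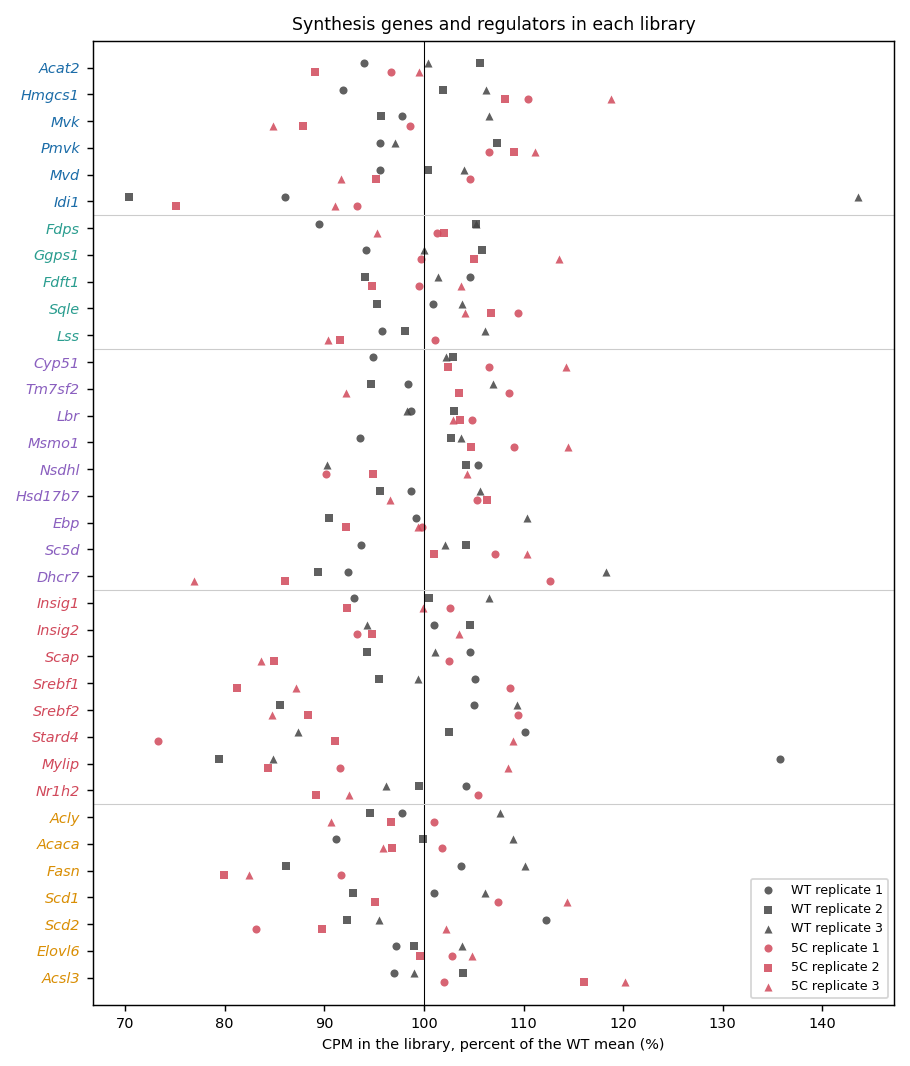
CPM of each of the 35 genes in each of the 6 libraries, as a percentage of the gene's WT mean (x axis; grey, WT; red, 5C; marker shape, replicate number). All red points lie right of all grey ones for *Hmgcs1*, *Sqle* and *Msmo1*, and *Idi1* and *Mylip* have 1 WT library far to the right.

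The mevalonate steps were examined next. Of the 6 genes, 4 were lower and 2 higher in 5C, and their median log2 fold change was -0.055. *Hmgcs1* (ENSMUSG00000093930; GRCm38 chromosome 13, 119690379 to 119708260, plus strand), the HMG-CoA synthase of the cytosol, measured 595, 659.5 and 687 CPM in the WT libraries and 715, 700.2 and 769 CPM in the 5C libraries. The 3 libraries of 5C all lay above those of WT, the highest WT and lowest 5C values being closest. The means were 647 ± 47.4 and 728 ± 36.3 CPM (SD, n = 3 each), for a log2 fold change of 0.17 (SE 0.08, 95% interval -0.0014 to 0.34) with p-values of 0.0516 before and 0.781 after adjustment in edgeR's quasi-likelihood test. Of the 40-base stretches of its longest transcript, 14.1% also occur on either strand in *Gm48342*, an annotated transcript on the opposite strand, and 40 bases was the read length.

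*Mvk*, the kinase of mevalonate, measured 38.98, 38.1 and 42.4 CPM in the WT libraries and 39.3, 35 and 33.8 CPM in the 5C libraries. The lower 2 values of 5C lay below WT, and 5C replicate 1 lay among the WT libraries. Its log2 fold change was -0.14 (SE 0.09) and its unadjusted p 0.149. *Pmvk*, the next kinase, averaged 29.6 ± 1.90 CPM in WT against 32.2 ± 0.690 CPM in 5C (SD, n = 3 each), and *Mvd*, the decarboxylase, was at 36.5 ± 1.55 and 35.5 ± 2.44 CPM (SD, n = 3 each). *Acat2*, which makes acetoacetyl-CoA, was at 148 ± 8.65 and 141 ± 7.95 CPM (SD, n = 3 each). Its count is uncertain, since 48.0% of its 40-base stretches also occur in *Acat3* or *Tcp1*.

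*Idi1*, the isomerase that makes the reactive isoprenoid unit, was the least precise member. It measured 4.30, 3.52 and 7.18 CPM in the WT libraries and 4.67, 3.76 and 4.56 CPM in the 5C libraries, so that WT replicate 3 was the highest library and the other 5 lay close together. Its coefficient of variation was 38.5% in WT and 11.5% in 5C. The log2 fold change was -0.15 (SE 0.26), and it was 0.13 without WT replicate 3. Of its 40-base stretches, 31.4% occur in transcripts of other genes, which leaves its low level uncertain.

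The isoprenoid and squalene steps had a median log2 fold change of -0.00050, with 3 of 5 genes lower and 2 higher in 5C. *Sqle* (ENSMUSG00000022351; chromosome 15, 59315077 to 59331192, plus strand), the squalene epoxidase and a rate-controlling step of sterol synthesis, measured 172, 163 and 177 CPM in the WT libraries and 187, 182 and 178 CPM in the 5C libraries. The gap between the genotypes was narrow, with the highest WT library at 177.4 CPM and the lowest 5C library at 177.9 CPM. Its log2 fold change was 0.10 (SE 0.06, 95% interval -0.04 to 0.23) and its unadjusted p 0.156 in edgeR's quasi-likelihood test.

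The other 4 genes of these steps overlapped between genotypes. *Fdps*, which makes farnesyl diphosphate, averaged 25.6 ± 2.33 CPM in WT against 25.5 ± 0.937 CPM in 5C (SD, n = 3 each), and *Fdft1*, the squalene synthase, at 67.8 ± 3.66 and 67.4 ± 3.02 CPM (SD, n = 3 each). *Ggps1*, which makes the geranylgeranyl group used to anchor small GTPases, had a log2 fold change of 0.09 (SE 0.08), and *Lss*, which closes the sterol rings, of -0.08 (SE 0.07). The counts of *Fdps* and *Fdft1* are uncertain. Exons of *Gm43738* on the same strand cover 26.7% of the exon bases of *Fdps*, and 33.5% of the 40-base stretches of *Fdft1* also occur in *Ctsb* or *Gm6781*.

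Of the 9 enzymes between lanosterol and cholesterol, 6 were higher and 3 lower in 5C, and their median log2 fold change was 0.04. *Msmo1* (ENSMUSG00000031604; chromosome 8, 64718139 to 64733792, minus strand) had 143, 157 and 159 CPM in the WT libraries and 167, 160.1 and 175 CPM in the 5C libraries. All 3 libraries of 5C were above all 3 of WT, by little in the case of 5C replicate 2. The log2 fold change was 0.13 (SE 0.07, 95% interval -0.02 to 0.28) and the unadjusted p 0.0836 in edgeR's quasi-likelihood test.

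*Cyp51*, the lanosterol demethylase, measured 241, 261 and 259.7 CPM in the WT libraries and 271, 260.2 and 290.2 CPM in the 5C libraries. Replicates 1 and 3 of 5C were above WT and 5C replicate 2 was among the WT libraries. Its log2 fold change was 0.11 (SE 0.07) with an unadjusted p of 0.143 in edgeR's quasi-likelihood test. *Sc5d*, a sterol desaturase, had a log2 fold change of 0.09 (SE 0.07), and *Hsd17b7*, which reduces a sterol ketone, of 0.04 (SE 0.08).

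The sterol reductases *Lbr* and *Tm7sf2* carry out the same step. *Lbr*, which is also a protein of the inner nuclear membrane, averaged 306 ± 7.95 CPM in WT against 317 ± 2.97 CPM in 5C (SD, n = 3 each), with coefficients of variation of 2.60% and 0.938%. Per kb of exon, *Lbr* was at 64.2 CPM and *Tm7sf2* at 6.03 CPM in WT, so that *Lbr* was the more abundant of the pair. Exons of *Vps51* cover 12.1% of *Tm7sf2* on the same strand, which makes its count uncertain.

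*Nsdhl* and *Ebp* are X-linked, and replicate 2 of each genotype was low in Y-linked transcripts. It was also the highest of its genotype in *Xist*, which was present in every library. *Nsdhl*, a sterol dehydrogenase, measured 36.2, 35.7 and 31.0 CPM in the WT libraries and 30.9, 32.5 and 35.7 CPM in the 5C libraries. *Ebp*, a sterol isomerase, measured 15.1, 13.7 and 16.8 CPM in the WT libraries and 15.2, 14.0 and 15.1 CPM in the 5C libraries. Replicate 2 was the lowest library of each genotype for *Ebp* and the middle one for *Nsdhl*. The log2 fold changes were -0.06 (SE 0.10) and -0.03 (SE 0.12), with unadjusted p-values of 0.551 and 0.781 in edgeR's quasi-likelihood test. *Dhcr7*, the reductase that completes cholesterol, was more variable, with 25.3, 24.5 and 32.4 CPM for WT and 30.8, 23.6 and 21.1 CPM for 5C.

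The 8 regulators were all lower in 5C, with log2 fold changes from -0.14 to -0.02 and a median of -0.09, where 8503 of all genes tested were lower and 8281 higher. None had an unadjusted p under 0.05 and the libraries of the genotypes overlapped for every one of them. The sign was the same for all 8 under both other scalings, with GC-content offsets and with a replicate block, but the GC-content offsets brought most of them closer to 0. With them, log2 fold changes were -0.0019 for *Nr1h2*, -0.0032 for *Insig1*, -0.015 for *Srebf2*, -0.047 for *Srebf1*, -0.060 for *Mylip* and -0.079 for *Scap*, while *Insig2* was at -0.049 and *Stard4* at -0.18. The direction turned for *Mylip* without WT replicate 1, at a log2 fold change of 0.21, for *Insig1* without 5C replicate 2, at 0.02, and for *Insig1* without WT replicate 3, at 0.02. Without replicate 2 of both genotypes, *Insig1* was at 0.03 and *Insig2* at 0.0043.

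*Scap* (ENSMUSG00000032485; chromosome 9, 110333288 to 110384950, plus strand), the escort of SREBP precursors, measured 63.8, 57.4 and 61.6 CPM in the WT libraries and 62.5, 51.7 and 51.0 CPM in the 5C libraries. Replicates 2 and 3 of 5C were below every WT library and 5C replicate 1 was second among the 6. Its log2 fold change was -0.14 (SE 0.09, 95% interval -0.36 to 0.07) with an unadjusted p of 0.158 in edgeR's quasi-likelihood test. Of its 40-base stretches, 14.3% also occur in *5830462I19Rik* on the opposite strand.

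For the SREBP genes too, 5C replicate 1 lay above the other libraries of its genotype. *Srebf1*, whose product acts mainly on fatty acid genes, measured 57.0, 51.8 and 53.9 CPM in the WT libraries and 58.9, 44.1 and 47.3 CPM in the 5C libraries. *Srebf2*, whose product acts mainly on sterol genes, measured 152.5, 124 and 159 CPM in the WT libraries and 159, 128 and 123 CPM in the 5C libraries. It was the highest of all 6 for both genes, and for *Srebf2* barely above WT replicate 3. Log2 fold changes were -0.11 (SE 0.11) for *Srebf1* and -0.08 (SE 0.12) for *Srebf2*. With 1 library left out they ran from -0.25 without 5C replicate 1 to -0.04 without 5C replicate 2 for *Srebf1*, and from -0.21 without 5C replicate 1 to -0.01 without 5C replicate 3 for *Srebf2*.

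*Insig1*, itself an SREBP target, averaged 85.8 ± 5.84 CPM in WT against 84.3 ± 4.59 CPM in 5C (SD, n = 3 each), and *Insig2* averaged 16.6 ± 0.867 and 16.1 ± 0.918 CPM (SD, n = 3 each). *Stard4*, which carries cholesterol between membranes, measured 62.8, 58.4 and 49.8 CPM in the WT libraries and 41.8, 51.9 and 62.1 CPM in the 5C libraries, so that 5C replicate 1 was the lowest of the 6 and 5C replicate 3 was near the highest. *Nr1h2*, the sterol-sensing nuclear receptor LXR beta, was at 31.5 ± 1.27 and 30.1 ± 2.71 CPM (SD, n = 3 each).

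*Mylip*, an LXR target whose product marks lipoprotein receptors for breakdown, measured 30.4, 17.8 and 18.98 CPM in the WT libraries and 20.5, 18.9 and 24.3 CPM in the 5C libraries. The highest of the 6 was WT replicate 1 and the next was 5C replicate 3. These were also the libraries highest in yolk sac and liver bud markers, at 6697 and 1304 CPM, and the part of those cells in the level of *Mylip* was not tested. Its log2 fold change was -0.10 (SE 0.20).

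The fatty acid genes held both members with an unadjusted p under 0.05. Of the 7 genes, 4 were lower and 3 higher in 5C, and their median log2 fold change was -0.02. *Fasn* (ENSMUSG00000025153; chromosome 11, 120805846 to 120824547, minus strand), the fatty acid synthase, measured 356, 296 and 378 CPM in the WT libraries and 315, 275 and 283 CPM in the 5C libraries. The 5C libraries were lower on average, but WT replicate 2 lay below 5C replicate 1. The means were 343 ± 42.7 and 291 ± 21.2 CPM (SD, n = 3 each), for a log2 fold change of -0.24 (SE 0.10, 95% interval -0.46 to -0.02) with p-values of 0.0346 before and 0.781 after adjustment in edgeR's quasi-likelihood test. None of its 40-base stretches occurs in another gene's transcripts.

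*Acsl3* (ENSMUSG00000032883; chromosome 1, 78657825 to 78707743, plus strand), which activates fatty acids and takes part in forming lipid droplets, measured 146, 156 and 149 CPM in the WT libraries and 153, 175 and 181 CPM in the 5C libraries. Replicates 2 and 3 of 5C were above every WT library, and 5C replicate 1 was below WT replicate 2. The means were 150.5 ± 5.41 and 169.6 ± 14.3 CPM (SD, n = 3 each), for a log2 fold change of 0.17 (SE 0.08, 95% interval 0.0040 to 0.34) with p-values of 0.0458 before and 0.781 after adjustment in edgeR's quasi-likelihood test. Exons of *Utp14b* on the same strand cover 5.6% of its exon bases.

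The count of 2 members at an unadjusted p under 0.05 moved with the libraries included, as did the share over all genes tested. It was 0 without WT replicate 1, where 4.63% of all genes were at that level, and 0 without 5C replicate 2, where 2.62% were. It was 1 without WT replicate 3 (5.11% of all genes), 1 without 5C replicate 3 (4.49%), 1 without replicate 2 of both genotypes (5.11%), 2 without WT replicate 2 (10.4%) and 4 without 5C replicate 1 (8.66%). *Fasn* stayed lower, from -0.33 to -0.17 on the log2 scale, and *Acsl3* stayed higher, from 0.12 to 0.24, whichever 1 library was left out.

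The other fatty acid genes overlapped between genotypes. *Acly*, which makes cytosolic acetyl-CoA from citrate, averaged 524 ± 35.6 CPM in WT against 503 ± 27.2 CPM in 5C, and *Elovl6*, an elongase, at 170.0 ± 5.92 and 174 ± 4.50 CPM (SD, n = 3 each). *Acaca*, the acetyl-CoA carboxylase, was at 94.9 ± 8.41 and 93.2 ± 3.05 CPM (SD, n = 3 each), but 54.8% of its 40-base stretches also occur in *Gm5182*, and its count is uncertain.

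The desaturases *Scd1* and *Scd2* introduce the same double bond. *Scd2* measured 800.1, 658 and 681 CPM in the WT libraries and 593, 639.5 and 729 CPM in the 5C libraries, a log2 fold change of -0.13 (SE 0.10). *Scd1* had a log2 fold change of 0.08 (SE 0.09). Per kb of exon, *Scd2* was at 130.5 CPM and *Scd1* at 17.9 CPM in WT, with 119.6 and 18.9 CPM for 5C, so that *Scd2* was the more abundant in both genotypes.

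Levels per kb of exon spanned a wide range among the 35 genes. In WT the highest were *Hmgcs1* at 141 CPM per kb, *Scd2* at 130.5, *Acly* at 99.2, *Lbr* at 64.2, *Acat2* at 58.2 and *Cyp51* at 57.5. The lowest were *Idi1* at 1.43, *Dhcr7* at 4.71, *Insig2* at 4.77 and *Acaca* at 5.56 CPM per kb. Among regulators, *Insig1* at 27.7 CPM per kb was above *Insig2*, and *Srebf2* at 20.2 was above *Srebf1* at 9.63. Exon length was the union of all annotated exons of a gene, so rarely used exons lower the value.

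**Figure D3:**
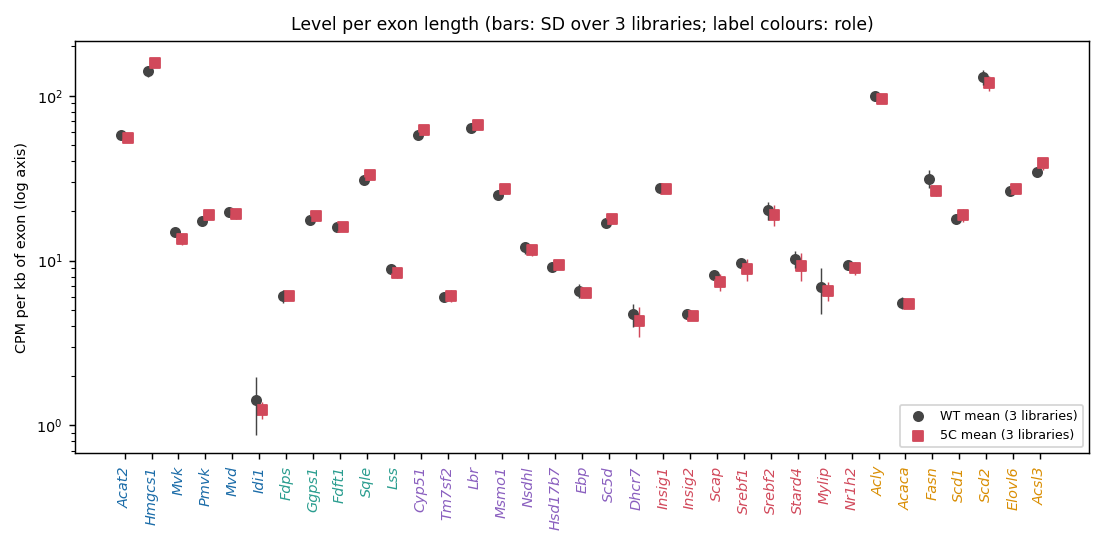
Mean CPM per kb of exon for each of the 35 genes (y axis, log scale; circles, WT; squares, 5C; bars, SD over 3 libraries), with names coloured by role. WT and 5C symbols lie side by side for each gene, and the genes range from *Idi1* at 1.43 to *Hmgcs1* at 141 CPM per kb in WT.

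The members were steady across libraries. The ratio of the highest to the lowest of the 6 libraries was under 1.5 for 31 of the 35 genes, or 88.6%, and for 65.7% of all genes tested, with medians of 1.19 and 1.34. The higher levels of the members lower their counting error, and genes of the same level were not compared. The other 4 were *Idi1*, *Mylip* and *Dhcr7*, with ratios of 2.04, 1.71 and 1.54, and *Stard4*, just past 1.5.

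Log2 fold changes ran against the GC content of the transcripts. Spearman's rho was -0.47 over the 35 members and -0.31 over 16770 genes tested, given as a description since genes of the same libraries are not independent. *Fasn* (57.9% GC), *Scap* (59.1%), *Srebf1* (58.4%), *Srebf2* (57.9%), *Nr1h2* (60.6%) and *Mvk* (56.3%) were GC-rich and lower in 5C, while *Hmgcs1* (43.1%), *Acsl3* (43.2%) and *Msmo1* (44.7%) were GC-poor and higher. *Pmvk*, at 57.0% GC, was higher in 5C and did not follow this order. With offsets fitted on GC content in each library, 0 members had an unadjusted p under 0.05, where 4.78% of all genes tested had one. In that fit *Fasn* was at -0.17, *Acsl3* at 0.14 and *Hmgcs1* at 0.13 on the log2 scale, and the median of the 35 was 0.0053. The part of GC content in the unadjusted differences was not tested further.

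**Figure D4:**
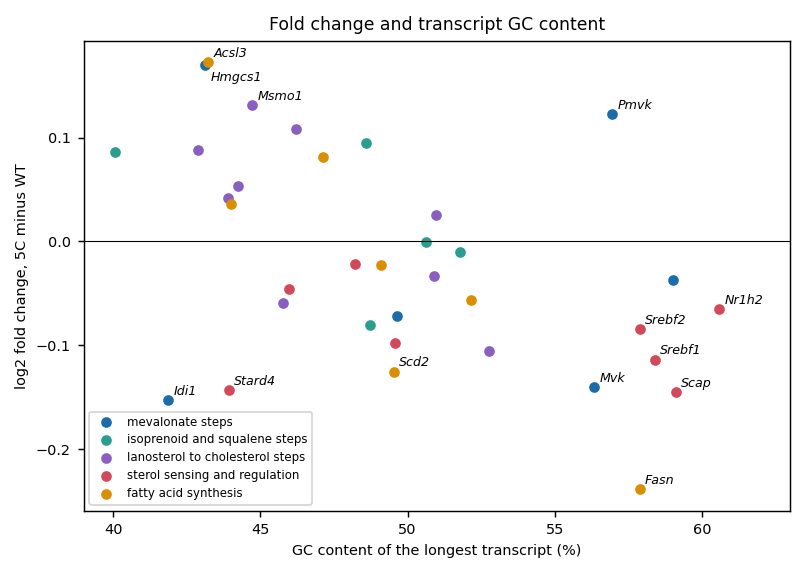
Log2 fold change in 5C against WT (y axis) and GC content of the longest transcript in percent (x axis), one point a gene, coloured by role. Points fall from upper left to lower right, with *Pmvk* above the rest at high GC content and *Idi1* and *Stard4* below the rest at low GC content.

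To relate the members to the microRNA itself, their 3′ UTRs were searched for matches to the seeds. The complement of the miR-483-3p seed (AGGAGTG) occurred in 3 of the 35 longest coding transcripts, or 8.57%, against 12.4% of 13923 genes with a 3′ UTR. That of the miR-483-5p seed (CCCGTCT) occurred in 1 of 35, or 2.86%, against 3.44%. The median 3′ UTR was 1512 bases long in the members and 1196 bases in all these genes. The 4 matches are shown in 30 bases of GENCODE transcript sequence each, 5′ to 3′ on the gene's strand, with the bases that pair with the seed in capitals. In GRCm38 they lie at chr13:8891934-8891963 (plus strand, *Idi1*), chr13:14053628-14053657 (minus strand, *Ggps1*), chr11:120806624-120806653 (minus strand, *Fasn*) and chr1:181815596-181815625 (minus strand, *Lbr*).
*Idi1*, miR-483-3p: tactgggattaaAGGAGTGtaccacatggc
*Ggps1*, miR-483-3p: cagttgaaaatgAGGAGTGgcttcatccca
*Fasn*, miR-483-3p: gtgtgtaagcagAGGAGTGgaggttgcttg
*Lbr*, miR-483-5p: caagtggctgtgCCCGTCTgatcatgccgt

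The 4 genes did not move in one direction. Log2 fold changes were -0.24 for *Fasn*, -0.15 for *Idi1*, 0.09 for *Ggps1* and 0.05 for *Lbr*, and of these *Fasn* alone had an unadjusted p under 0.05. A match is a description of the letters and not a tested site.

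Promoters were described because SREBP-dependent genes are known to be served by sterol regulatory elements and by CCAAT boxes, which bind the cofactor NF-Y. RefSeq promoter windows of GRCm38.p6, from 250 bases before to 50 bases after each start, were matched by symbol for 29 of the 35 genes, and *Fdps*, *Fdft1*, *Sqle*, *Stard4*, *Scd1* and *Scd2* were not matched. The letters CCAAT, on either strand, occurred in 24 of the 29 genes, or 82.8%, against 41.0% of 26994 symbols and 42.9% of 11448 symbols tested here. Counted by window, since some genes have several starts, they occurred in 25 of 37 member promoters, or 67.6%, against 37.4% of 32817. The letters TCACNCCAC, a form of the sterol regulatory element, occurred on either strand in 1 of the 29 genes, against 1.44% of all symbols. No match says only that these letters are not in this window, and the motifs do not overlap each other in the 29 genes.

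Of the genes with values in every library, 4 are shown for their CCAAT letters, which read ATTGG where they lie on the opposite strand, and *Hmgcs1* also for the sterol regulatory letters. Sequences run 5′ to 3′ on the gene's strand with the motif in capitals. The windows lie at chr13:119690204-119690232 (plus strand; *Hmgcs1*, 137 bases before the start), chr13:119690296-119690320 (plus strand; *Hmgcs1*, 45 bases before), chr5:114444192-114444216 (plus strand; *Mvk*, 67 bases before), chr8:64733619-64733643 (minus strand; *Msmo1*, 55 bases before) and chr11:120824595-120824619 (minus strand; *Fasn*, 62 bases before). In *Fasn* the letters overlap a second match on the opposite strand.
*Hmgcs1*, sterol regulatory letters: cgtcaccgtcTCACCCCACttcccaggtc
*Hmgcs1*, CCAAT: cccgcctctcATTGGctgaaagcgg
*Mvk*, CCAAT: tgaagttcccATTGGttaatgtttg
*Msmo1*, CCAAT: gtggggcggaCCAATtacgacaggc
*Fasn*, CCAAT: gcctcggtgtCCAATtggtttcgat

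These 4 genes are examples from the 24 with CCAAT letters, and *Hmgcs1* and *Msmo1* were higher and *Mvk* and *Fasn* lower in 5C. Whether the letters go with a direction was not tested.

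**Figure D5:**
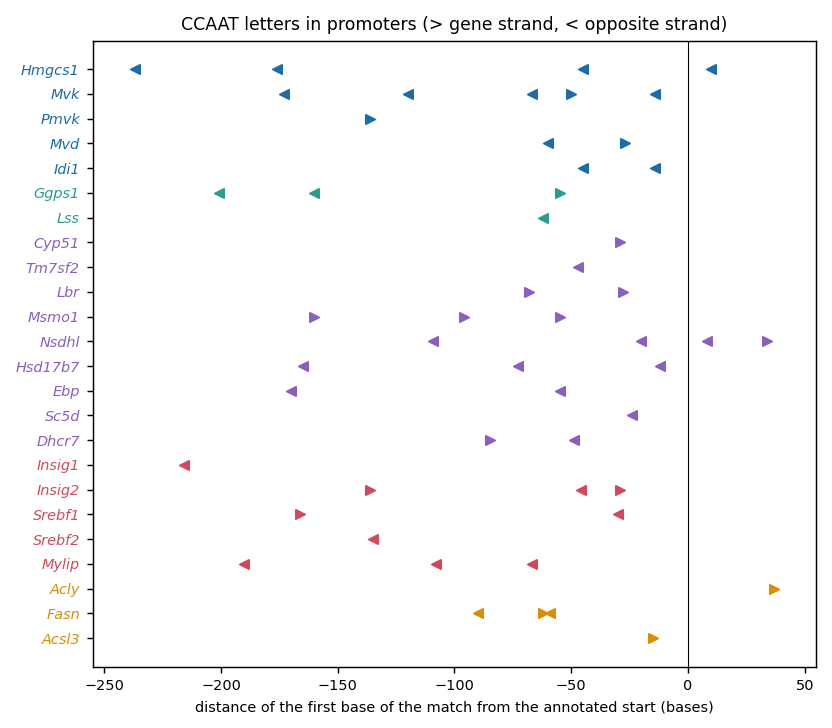
Position of each CCAAT match (x axis, bases from the annotated start; right-pointing, gene strand; left-pointing, opposite strand) in the 24 genes with at least 1 match, coloured by role. Most matches lie before the start, and *Mvk* has 5 of them.

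Other genes of the pathways were read from the same fit. Of 53 further genes for fatty acid synthesis and elongation, isoprenoid and sterol enzymes, SREBP processing, sterol transport and LXR targets, 51 could be tested. In 5C, 34 were lower and 17 higher, and their median log2 fold change was -0.03. None passed an adjusted p under 0.05. An unadjusted p under 0.05 was reached by 2 of the 51, against 6.02% of all genes tested, and the genotypes did not overlap for 6 of the 51, of which 4 were lower and 2 higher, against 11.4% of all genes. Both shares were close to or below those of all genes.

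Both genes with an unadjusted p under 0.05 were lower in 5C. *Mlxipl* (chromosome 5, 135089890 to 135138382, plus strand), which encodes the glucose-responsive activator of lipid synthesis ChREBP, measured 3.57, 1.98 and 3.83 CPM in the WT libraries and 1.70, 1.88 and 1.99 CPM in the 5C libraries, a log2 fold change of -0.74 (SE 0.27) with an unadjusted p of 0.0234 in edgeR's quasi-likelihood test. *Abca1* (chromosome 4, 53030787 to 53159895, minus strand), which exports cholesterol and is an LXR target, measured 67.3, 45.9 and 54.1 CPM in the WT libraries and 45.8, 47.4 and 42.2 CPM in the 5C libraries, a log2 fold change of -0.31 (SE 0.13) with an unadjusted p of 0.0370. Without WT replicate 1 the log2 fold change of *Abca1* was -0.14 and that of *Mlxipl* -0.57. For each gene WT replicate 2 lay among the 5C libraries, and the adjusted p was 0.781.

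The count of these further genes at an unadjusted p under 0.05 was 0 without WT replicate 1, the library highest in yolk sac and liver bud markers, where 4.63% of all genes tested were at that level. It was 8 without WT replicate 2 (10.4% of all genes) and 4 without WT replicate 3 (5.11%). It was 1 without each 5C library in turn (2.62% to 8.66%) and 5 without replicate 2 of both genotypes (5.11%). A second LXR gene, *Nr1h3*, was named after its values were seen because it and *Mlxipl* alone had a fitted difference over 1.5-fold. It measured 4.72, 2.15 and 2.07 CPM in the WT libraries and 1.45, 1.96 and 2.49 CPM in the 5C libraries, so that WT replicate 1 alone stood above the other 5 libraries. Its log2 fold change was -0.69 (SE 0.35), with an unadjusted p of 0.0830 in edgeR's quasi-likelihood test.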

How the data were processed

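RNA-seq of 3 WT and 3 5C libraries was used, with genotype and replicate number from the sample titles. The authors aligned single-end reads to GRCm38 with STAR and deposited raw counts per Ensembl gene, as whole numbers without normalization. The strand column used for counting is not given in the sources used here. From the counts, edgeR 4.0.16 in R 4.3.3 was run on all 6 libraries (filterByExpr on genotype, TMM scaling, glmQLFit in its legacy form with trended dispersion, quasi-likelihood F-test, two-sided, Benjamini-Hochberg adjustment over all 16784 genes tested). The biological coefficient of variation was 13.6%. The standard error was the log2 fold change divided by the square root of F, and CPM used TMM-scaled totals. Floors of 3 counts cover counting error only. The fit was tested on simulated data.

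Symbols, positions, 3′ UTRs and GC content came from GENCODE M21 (55141 of 55401 identifiers matched) and promoters and microRNAs from RefSeq. Members and lists were chosen with earlier results of these data known. All 35 members were named. Values in every library were given for those with an unadjusted p under 0.05, the 8 smallest p-values, the X-linked members and, chosen after their values were seen, *Idi1*, *Dhcr7*, *Srebf1*, *Srebf2*, *Stard4*, *Mylip* and *Scd2*. Of the other pathway genes, those with an unadjusted p under 0.05 were named, and *Nr1h3* was added after its values were seen. Alternatives were other scalings and count filters, DESeq2 1.42.0, GC-content offsets (loess span 0.4), a block for the replicate number, leaving out each library, or replicate 2 of both genotypes.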

Additional observations from a re-analysis of the deposited data

How the results depend on the processing

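In all alternatives 0 of the 35 genes passed an adjusted p under 0.05, while over all genes calls numbered 416 without a count filter, 21 with DESeq2, 1 with GC-content offsets and the replicate block, 1 without 5C replicate 2, 1 without 5C replicate 3 and 0 otherwise. The members at an unadjusted p under 0.05 numbered 2 as reported (6.02% of all genes tested), 4 with library size alone (6.26%) and 3 without a count filter (6.55%). They numbered 3 with at least 10 counts in every library (6.5%), 0 with GC-content offsets (4.78%) and 0 with these and the replicate block (3.06%). There was 1 without replicate 2 of both genotypes (5.11%), and there were 0 to 4 with 1 library left out (2.62% to 10.4%). The other pathway genes at that level numbered 2 as reported (6.02% of all genes), 7 without a count filter (6.55%) and 1 with DESeq2 (4.29%). They numbered 5 without replicate 2 of both genotypes (5.11%) and 0 to 8 with 1 library left out (2.62% to 10.4%). Members whose genotypes did not overlap numbered 3 as reported (11.4% of all genes), 2 with RLE scaling (11.3%), 5 with library size alone (12.2%), 11 without replicate 2 of both genotypes (36.2%) and 5 to 13 with 1 library left out (16.7% to 28.0%), where fewer libraries overlap less often by construction. The median log2 fold change of the members was -0.033 as reported, -0.036 with the replicate block, 0.0053 and 0.0076 with GC-content offsets alone and with the block, and -0.0313 to 0.0175 with 1 library left out.

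The changes of direction were among members with no unadjusted p under 0.05, and the cause was not tested. With GC-content offsets and with these and the replicate block, *Mvd* was at 0.028 and 0.030, *Fdps* at 0.043 and 0.047, *Fdft1* at 0.045 and 0.043, *Ebp* at 0.015 and 0.012 and *Acaca* at 0.0053 and 0.0076, and *Acly* turned with both, at 0.00032. *Fdps* was at 0.016 with library size alone, 0.013 without a count filter and 0.0024 with the replicate block, and *Fdft1* at 0.0065 with library size alone and 0.0037 without a count filter. Without replicate 2 of both genotypes, *Acat2* was at 0.014, *Fdps* at 0.025, *Tm7sf2* at -0.026, *Hsd17b7* at -0.015, *Insig1* at 0.025 and *Insig2* at 0.0043. With 1 library left out, ranges that crossed 0 were -0.0946 to 0.00348 for *Mvd*, -0.337 to 0.133 for *Idi1*, -0.0801 to 0.0465 for *Fdps*, -0.0523 to 0.0278 for *Fdft1*, -0.0274 to 0.0904 for *Tm7sf2*, -0.0961 to 0.0257 for *Ebp*, -0.284 to 0.0115 for *Dhcr7*, -0.0721 to 0.0175 for *Insig1*, -0.255 to 0.213 for *Mylip* and -0.0853 to 0.0338 for *Acaca*. The replicate numbers were not taken to pair the libraries, since same-numbered libraries had correlations of their deviations of -0.171, 0.201 and -0.199. The replicate block left the members at an unadjusted p under 0.05 at 2, beside 4.66% of all genes. The lowest counts in a library were 41 for *Idi1*, 22 for *Mlxipl* and 13 for *Nr1h3*, and the part of depth in their spread was not tested.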
